A study of Mus musculus with 12 samples.

Results

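The retinal ganglion cell genes described here are 10 genes taken as markers of ganglion cells or as neurofilaments: *Pou4f1*, *Pou4f2*, *Thy1*, *Nefl*, *Nefm*, *Nefh*, *Sncg*, *Rbpms*, *Isl1* and *Slc17a6*. They were found by gene symbol among the 19057 genes named on the array, where 8 of the 10 had at least 1 named probe. *Pou4f2* and *Nefh* had no named probe and were not analysed here. The 8 measured genes were covered by 18 probes, of which 16 were detected on at least 1 array and 11, for 7 genes, on all 12 arrays.

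RNA from mouse retina at postnatal day 10 (P10) was measured on Illumina bead arrays, with 3 arrays for each of 4 genotypes of *Crx*, which encodes a homeodomain transcription factor of photoreceptors. WT mice carried the normal gene. E168d2neo/d2neo mice were homozygous for a knock-in frameshift deletion that truncates the transactivation domains of CRX, R90Wneo/Wneo mice were homozygous for a knock-in amino acid substitution in its homeodomain, and Crx-/- mice were homozygous for the knock-out allele. Both knock-in alleles still held the *neo* selection cassette in an intron, which lowers expression of the mutant allele. The strain was C57bl6/J throughout, to which the mice had been backcrossed. The knock-in alleles were made in embryonic stem cells of a 129 strain. Each array held polyA RNA pooled from the 4 retinas of 1 female and 1 male animal. The replicates are therefore pools.

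Ganglion cells are the output neurons of the retina. They receive signals from bipolar and amacrine cells, and their axons leave the eye as the optic nerve. CRX is known as a regulator of rod and cone genes. POU4F1 and ISL1 are transcription factors of ganglion cells, RBPMS is an RNA-binding protein used to label them, THY1 is a surface glycoprotein, SNCG is a synuclein of their cell bodies and axons, NEFL and NEFM are subunits of the neurofilaments that fill large axons, and SLC17A6 (VGLUT2) loads glutamate into their synaptic vesicles. Several of these genes are shared with other cells: *Isl1* is also made by ON bipolar and cholinergic amacrine cells, and *Thy1* by T lymphocytes.

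The upstream sequence of *Isl1* is shown because it was the member whose level in the mutants stood apart from WT on every array, and that of *Sncg* because its second probe had the smallest adjusted p among the members. Both are the 250 bases before the annotated start in RefSeq (GRCm38.p6), read 5′ to 3′ in the direction of the gene, at chr13:116309689-116309938 on the minus strand for *Isl1* and chr14:34374670-34374919 on the minus strand for *Sncg*. Capitals mark TAATCC, a motif of the kind that CRX binds, which was searched on both strands.
Isl1: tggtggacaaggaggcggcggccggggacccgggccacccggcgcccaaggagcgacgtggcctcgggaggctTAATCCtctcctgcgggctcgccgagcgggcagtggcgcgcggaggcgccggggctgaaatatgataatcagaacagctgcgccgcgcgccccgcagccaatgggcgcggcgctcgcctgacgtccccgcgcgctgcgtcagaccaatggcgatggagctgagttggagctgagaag
Sncg: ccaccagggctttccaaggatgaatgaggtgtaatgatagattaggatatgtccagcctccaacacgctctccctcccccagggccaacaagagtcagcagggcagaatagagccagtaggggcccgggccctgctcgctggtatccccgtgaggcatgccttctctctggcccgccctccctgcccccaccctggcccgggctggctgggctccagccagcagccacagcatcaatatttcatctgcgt
A sequence was at hand for 5 of the members, with 6 windows in all. *Pou4f2*, which had no named probe, was among these members. The motif was in 1 of these 6 windows, that of *Isl1*, where it starts 177 bases before the annotated start. Of all 32851 upstream windows of this length, 6.25% held it. The match is a description of letters and shows no binding.

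None of the 8 measured ganglion cell genes passed the test in any mutant. The deposited signals were quantile-normalized, values under 16 (4 on the log2 scale) were set to 16, and limma was run on the 24311 probes with detection on 1 array or more. Calls needed a change of 2-fold or more and a p adjusted over all tested probes (Benjamini-Hochberg) no higher than 0.05. By this rule 0 of 8 genes and 0 of 16 probes were called by limma in E168d2neo/d2neo against WT, where 3.79% of all tested probes were called. The counts were also 0 for R90Wneo/Wneo, against a background of 0.979%, and in Crx-/-, against 3.89%. SAM, a permutation-based test over arrays, also called 0 members in these comparisons.

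At an unadjusted p under 0.05, counted with the brightest probe of each gene, 1 gene was lower in E168d2neo/d2neo (background 21.6% in either direction), none was in R90Wneo/Wneo (11.4%), and 1 gene was lower and 1 higher in Crx-/- (21.6%). These shares of the members lie near or under the background. Over the 8 genes the median log2 difference from WT was 0.09 for E168d2neo/d2neo, -0.02 for R90Wneo/Wneo and -0.07 for Crx-/-, beside 0.01 for all tested probes in each. Without E168d2neo/d2neo replicate 1 the median of that genotype was 0.28, and without its replicate 3 it was -0.04. In Crx-/- it was -0.17 over the 7 genes detected on all arrays and -0.18 over the 16 probes. Among the 7 genes detected on all arrays, the 95% interval of the difference lay within 2-fold in either direction for 6 in each mutant. *Nefl*, at the floor on all WT arrays, is left out of this count. In RNA of whole retina, a lower number of cells of a type and less RNA per cell cannot be told apart.

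**Figure D1:**
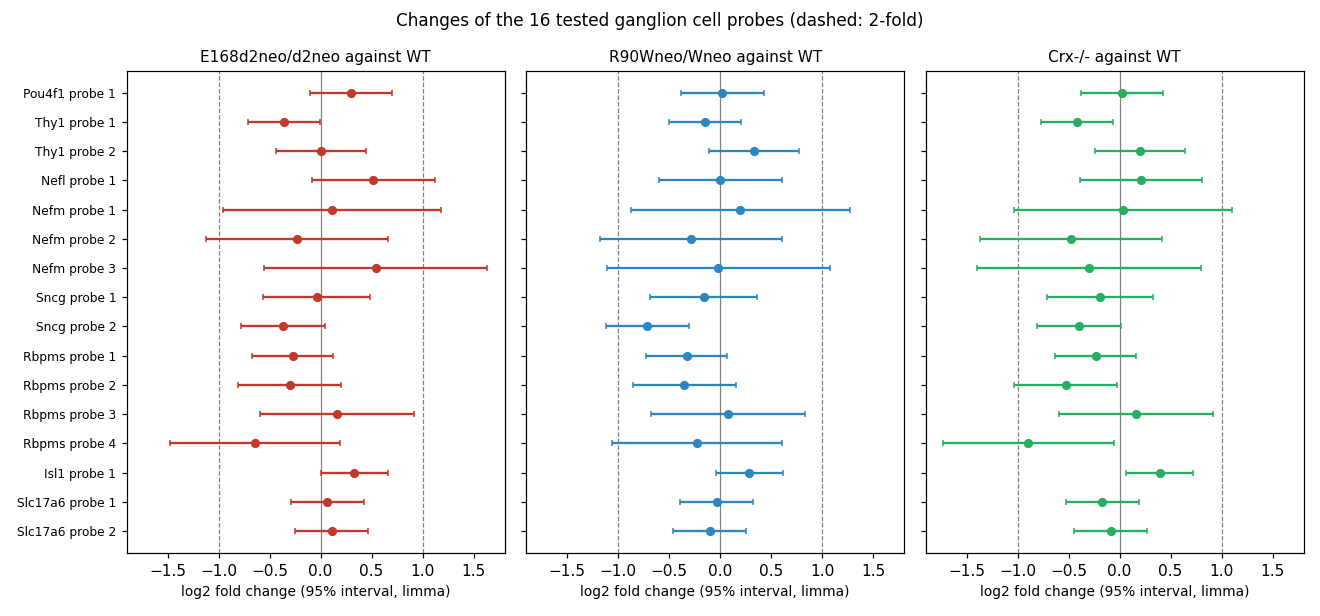
Log2 fold change from WT (x axis) of the 16 tested ganglion cell probes (y axis) in each mutant, with the 95% interval from limma. No probe was called, and the intervals are widest for the *Nefm* probes and for *Rbpms* probe 4.

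Many photoreceptor genes fell on the same arrays. Of 13 rod genes tested, 9 were called lower in E168d2neo/d2neo, 0 for R90Wneo/Wneo and 7 for Crx-/-, with median log2 differences of -2.09, -0.52 and -1.01. Of 9 cone genes, 6, 4 and 6 were called lower and 2 were called higher in each mutant. The summed signal of the rod genes ran from 158700 to 173135 on the WT arrays and from 30297 to 122966 on the mutant arrays, and its part in the level of any ganglion cell gene was not tested.

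The transcription factors come first in the order of roles. *Isl1* was bright on every array. Its log2 level was 13.30, 13.35 and 13.42 on the 3 WT arrays, 13.73, 13.77 and 13.56 for E168d2neo/d2neo, 13.87, 13.50 and 13.56 for R90Wneo/Wneo, and 13.90, 13.70 and 13.65 for Crx-/-. All 9 mutant arrays lay above the 3 WT arrays, by a margin that was small beside the spread among the mutants.

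The log2 difference of *Isl1* from WT was 0.33 (95% interval -0.00 to 0.66, adjusted p = 0.234) for E168d2neo/d2neo, 0.29 (-0.04 to 0.62, adjusted p = 0.524) for R90Wneo/Wneo and 0.39 (0.06 to 0.72, adjusted p = 0.153) for Crx-/-. With the 3 mutants as 1 group, a comparison added after the values were seen, it was 0.34 (adjusted p = 0.135). A separation of the groups of this kind was common: the arrays did not overlap for 22.2% of tested probes in E168d2neo/d2neo against WT, for 18% in R90Wneo/Wneo, for 29.6% in Crx-/-, and for 8.3% with the mutants together. In that pooled comparison 2.9% of probes were called and 21.7% had an unadjusted p under 0.05. When each array was scaled to a common mean in place of the quantile step, *Isl1* overlapped with WT in E168d2neo/d2neo and R90Wneo/Wneo and stayed apart in Crx-/- only.

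*Isl1* is also a gene of ON bipolar cells, and none of the bipolar genes passed the test. Of 14 tested, *Isl1* included, 0 were called in any mutant by limma. At an unadjusted p under 0.05, 5 were lower and 2 higher in E168d2neo/d2neo, 0 differed in R90Wneo/Wneo, and in Crx-/- 6 were lower and 2 higher. With 7 and 8 of the 14 genes in E168d2neo/d2neo and Crx-/-, these shares lay above the 21.6% of all probes. Their median log2 difference was -0.29, -0.09 and -0.29, beside 0.01 for all tested probes. *Prkca*, a kinase of rod bipolar cells, differed by -0.25, -0.03 and -0.16, and *Grm6*, the glutamate receptor of ON bipolar cells, by 0.04, 0.06 and -0.39, none of them called. Of 7 genes of cholinergic (starburst) amacrine cells 0 were called by limma. At an unadjusted p under 0.05, 2, 0 and 1 were higher, beside 21.6%, 11.4% and 21.6% of all probes in either direction. None of the 7 was lower at that level, and their median log2 difference was 0.16, 0.15 and 0.25. Unlike these medians, *Chat*, which makes acetylcholine, differed by -0.10, 0.05 and -0.38.

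*Pou4f1* was measured on 1 of its 3 probes, since the other 2 were undetected on all 12 arrays. Its log2 level was 6.95, 7.27 and 7.10 for WT, 7.13, 7.58 and 7.50 for E168d2neo/d2neo, 7.02, 7.33 and 7.04 for R90Wneo/Wneo, and 7.40, 6.98 and 7.02 for Crx-/-. Every mutant overlapped with WT. The log2 difference was 0.30 (95% interval -0.11 to 0.70, adjusted p = 0.395) for E168d2neo/d2neo and 0.02 in both other mutants.

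*Thy1* was measured on a bright probe, probe 1, with probes numbered within a gene from the brightest. Its log2 level was 12.08, 12.40 and 12.32 for WT, 11.78, 11.82 and 12.12 for E168d2neo/d2neo, 12.01, 12.19 and 12.16 for R90Wneo/Wneo, and 11.72, 11.77 and 12.06 for Crx-/-. The Crx-/- arrays lay just below the WT arrays, while 1 E168d2neo/d2neo array and the R90Wneo/Wneo arrays lay within or beside the WT range. The log2 difference from WT was -0.36 (95% interval -0.72 to -0.01, adjusted p = 0.224) for E168d2neo/d2neo, -0.15 for R90Wneo/Wneo (adjusted p = 0.804) and -0.42 (-0.77 to -0.06, adjusted p = 0.158) for Crx-/-. By the point estimates, *Thy1* signal changed by -22.1% and -25.1% in E168d2neo/d2neo and Crx-/-, without passing the test.

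The other *Thy1* probe was detected on 1 of the 12 arrays and gave no usable level. T lymphocytes also make THY1. Of 7 of their marker genes on the array, *Cd3e* among them, 6 were undetected on all 12 arrays. The other, *Cd2*, averaged 4.37 on the log2 scale, close to the floor of 4. The part of T lymphocytes in the *Thy1* signal was not tested.

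The RNA-binding protein gene *Rbpms* had 4 probes. Probe 1 read 9.11, 8.68 and 8.65 for WT, 8.73, 8.33 and 8.54 for E168d2neo/d2neo, 8.42, 8.71 and 8.31 for R90Wneo/Wneo, and 8.51, 8.56 and 8.66 for Crx-/-. WT replicate 1 was the highest array, and the other WT arrays lay among the mutants. The log2 differences were -0.28, -0.33 and -0.23 in the order E168d2neo/d2neo, R90Wneo/Wneo and Crx-/-, with adjusted p of 0.422, 0.547 and 0.498.

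*Rbpms* probe 2 read 8.24, 7.79 and 7.97 for WT, 8.04, 7.36 and 7.69 for E168d2neo/d2neo, 7.33, 8.06 and 7.56 for R90Wneo/Wneo, and 7.58, 7.33 and 7.49 for Crx-/-. Its Crx-/- arrays lay below WT, with a log2 difference of -0.53 (95% interval -1.04 to -0.03, adjusted p = 0.204). Probe 3 lay near 6 in all genotypes and its differences were between 0.08 and 0.16. Probe 4 was dim, detected on 2 WT and 2 R90Wneo/Wneo arrays and on no array of the other genotypes. Its log2 difference in Crx-/- was -0.90 (adjusted p = 0.196). It became the only member probe to be called in any of the alternatives run, at -1.39 (adjusted p = 0.0377) without WT replicate 1, with the Crx-/- level set by the floor. *Rbpms2*, the close relative of *Rbpms* in ganglion cells, differed by -0.23, -0.39 and -0.29 and was not called.

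The 2 probes of *Sncg* did not read alike. Probe 1 read 11.32, 11.61 and 11.45 for WT, 10.83, 11.70 and 11.72 for E168d2neo/d2neo, 11.03, 11.36 and 11.50 for R90Wneo/Wneo, and 11.10, 11.34 and 11.35 for Crx-/-. Each mutant overlapped with WT, and E168d2neo/d2neo replicate 1 was the lowest array. The log2 differences were -0.04, -0.16 and -0.19, with adjusted p of 0.963, 0.864 and 0.695.

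*Sncg* probe 2 read 8.10, 7.71 and 7.55 for WT, 7.26, 7.43 and 7.56 for E168d2neo/d2neo, 7.19, 7.23 and 6.80 for R90Wneo/Wneo, and 7.31, 7.33 and 7.52 for Crx-/-. The R90Wneo/Wneo arrays lay below WT and just below both other mutants, and the Crx-/- arrays lay just below WT. Of all tested probes, 18% and 29.6% had no overlap with WT in these 2 mutants. The share without overlap between mutants was not computed. With each array scaled to a common mean, R90Wneo/Wneo stayed below WT and Crx-/- overlapped with it. Its log2 difference from WT was -0.37 (adjusted p = 0.284) for E168d2neo/d2neo, -0.71 (95% interval -1.12 to -0.30, adjusted p = 0.107) for R90Wneo/Wneo and -0.40 (adjusted p = 0.242) for Crx-/-, and -0.49 (adjusted p = 0.0798) with the mutants together. R90Wneo/Wneo was not shown to differ from Crx-/- on this probe, at -0.31 (-0.72 to 0.09, adjusted p = 0.611). Of 7 pigment epithelium genes, 0 were called by limma in R90Wneo/Wneo against WT. At an unadjusted p under 0.05, 4 of these genes were lower there, beside 11.4% of all probes in either direction. The summed signal of these genes ran from 4618 to 11815 for WT and from 1469 to 4609 for R90Wneo/Wneo, and its part in the *Sncg* value was not tested. *Sncb*, the other synuclein gene tested, differed by -0.10, 0.10 and -0.12 in the order above.

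**Figure D2:**
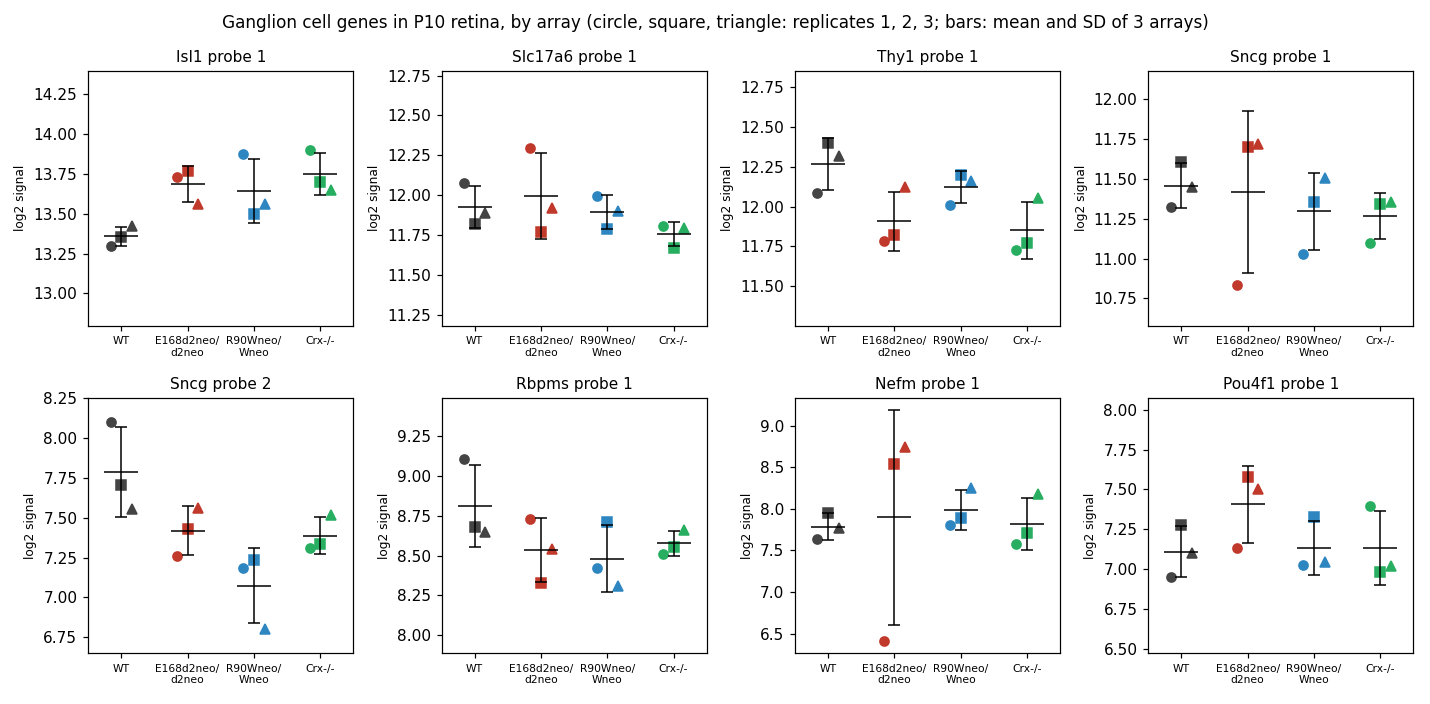
Log2 signal (y axis) of 8 ganglion cell probes on each of the 12 arrays by genotype (x axis), with the mean and SD of 3 arrays. *Isl1* lies above WT on all 9 mutant arrays, and E168d2neo/d2neo replicate 1, the circle, is far below replicates 2 and 3 for *Nefm* (6.41 against 8.55 and 8.74).

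The neurofilament genes gave the widest spread. *Nefm* probe 1 read 7.64, 7.95 and 7.77 for WT, 6.41, 8.55 and 8.74 for E168d2neo/d2neo, 7.81, 7.89 and 8.26 for R90Wneo/Wneo, and 7.58, 7.71 and 8.18 for Crx-/-. The E168d2neo/d2neo arrays held both the lowest and the highest level of all 12, and their SD was 1.30 against 0.16 for WT. The log2 differences from WT were 0.11 (95% interval -0.96 to 1.18), 0.20 (-0.88 to 1.27) and 0.03 (-1.04 to 1.11), so that these intervals reached close to or past 2-fold in both directions.

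*Nefm* probe 2 followed the same order within E168d2neo/d2neo, at 4.88, 6.54 and 6.67, against 6.71, 6.04 and 6.03 for WT, and was undetected on the lowest of these arrays. It differed from WT by -0.23, -0.29 and -0.48, and none of these was called (adjusted p = 0.798, 0.855 and 0.544). Its Crx-/- arrays, at 5.74, 5.64 and 5.97, lay just below WT, where 29.6% of all tested probes had no overlap. They overlapped with WT when each array was scaled to a common mean. Probe 3 was detected on 4 arrays. *Nefl* was at the floor of 4 on all WT and R90Wneo/Wneo arrays and was detected on 1 array, E168d2neo/d2neo replicate 3, at 5.22, so its probe gave no usable comparison. Among 10 neuronal filament genes and their partners, both neurofilament genes included, 0 were called in any mutant by limma. In these mutants in turn, 21.6%, 11.4% and 21.6% of all tested probes had an unadjusted p under 0.05 in either direction. Of the 10 genes, 3 were higher at that level for E168d2neo/d2neo, 2 for R90Wneo/Wneo and 3 for Crx-/-, where 1 more was lower. By the mean over all 12 arrays the brightest of them were *Mapt*, encoding the microtubule protein tau, at 0.37, 0.33 and 0.47 on the log2 scale, and *Mapk8ip1*, a scaffold of JNK signalling and kinesin transport, at 0.54 (adjusted p = 0.037), 0.30 and 0.52 (adjusted p = 0.0423), under the 2-fold limit. The kinesin motor genes of the list had negative values, at -0.16, -0.18 and -0.11 for *Kif5c*, which was brighter than *Mapk8ip1* in WT, and at -0.32, -0.15 and -0.40 for *Kif5a*, none of them called.

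*Slc17a6*, the glutamate transporter gene, varied little. Probe 1 read 12.08, 11.82 and 11.89 for WT, 12.29, 11.77 and 11.92 for E168d2neo/d2neo, 11.99, 11.79 and 11.90 for R90Wneo/Wneo, and 11.81, 11.67 and 11.80 for Crx-/-. The ranges of E168d2neo/d2neo and R90Wneo/Wneo overlapped with WT, and Crx-/- lay just below it. The log2 differences were 0.07 (95% interval -0.29 to 0.42), -0.03 (-0.39 to 0.33) and -0.17 (-0.53 to 0.19).

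*Slc17a6* probe 2 differed by 0.11, -0.10 and -0.09, with 95% intervals between -0.46 and 0.47. The related gene *Slc17a7* (VGLUT1), the transporter of photoreceptors and bipolar cells, fell in E168d2neo/d2neo and Crx-/-. It read 11.80, 11.91 and 11.63 for WT, 9.80, 8.58 and 9.53 for E168d2neo/d2neo, 10.59, 11.01 and 10.84 for R90Wneo/Wneo, and 9.51, 9.78 and 10.12 for Crx-/-. Its log2 difference from WT was -2.48 ± 0.29 (SE, adjusted p = 0.000409) for E168d2neo/d2neo and -1.98 ± 0.29 (adjusted p = 0.00213) for Crx-/-. In R90Wneo/Wneo it was -0.96 (adjusted p = 0.175).

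No member passed the test between mutants either. Of the 8 genes 0 were called between E168d2neo/d2neo and Crx-/- (background 0.531%), between R90Wneo/Wneo and Crx-/- (0.378%) or between E168d2neo/d2neo and R90Wneo/Wneo (0.522%), by limma and by SAM. At an unadjusted p under 0.05 the count was 0 in each as well, beside a background of 10.4%, 10.6% and 8.71%. With the brightest probe of each gene, the largest difference between mutants was the 0.52 of *Nefl*, at the floor in R90Wneo/Wneo. Among the genes detected on all arrays it was 0.27, for *Pou4f1*, between E168d2neo/d2neo and R90Wneo/Wneo. Over all member probes detected on all 12 arrays it was 0.34, for *Sncg* probe 2 in the same comparison (adjusted p = 0.663 from limma).

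The E168d2neo/d2neo arrays differed among themselves. The mean of the centred log2 levels over the 7 genes detected on all arrays was -0.24 on replicate 1, 0.13 on replicate 2 and 0.22 on replicate 3. In the other genotypes it lay between -0.12 and 0.07. Its mean and SD were 0.02 ± 0.05 (n = 3) for WT, 0.04 ± 0.24 for E168d2neo/d2neo, -0.00 ± 0.05 for R90Wneo/Wneo and -0.06 ± 0.07 for Crx-/-. Array brightness moved with it within E168d2neo/d2neo, where the mean deposited signal was 183 on replicate 1 and 367 and 394 on replicates 2 and 3, while WT replicate 1, at 176, had a centred level of -0.01. Its part in these values was not tested.

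**Figure D3:**
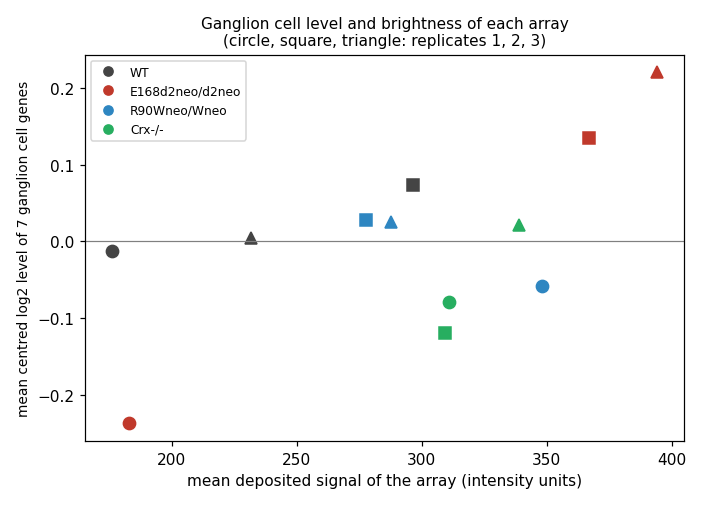
Mean centred log2 level of 7 ganglion cell genes (y axis) against the mean deposited signal (x axis, intensity units) of each array, coloured by genotype with 1 symbol per replicate. E168d2neo/d2neo holds both ends, at -0.24 and 0.22, and its lowest array is also dim (183), as is WT replicate 1 (176), which lies near 0.

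Of 10604 other named probes detected on all 12 arrays, those whose levels ran most like this mean were for *Espn*, an actin-bundling protein (Pearson's r = 0.93, rho = 0.92 over 12 arrays), *Cdk14*, a cyclin-dependent kinase (r = 0.92, rho = 0.73), *Ap3b2*, a neuronal adaptor subunit for vesicle transport (r = 0.92, rho = 0.94), *Ube2f*, a NEDD8-conjugating enzyme (r = 0.91, rho = 0.93), and *Ik*, a splicing factor (r = 0.90, rho = 0.84). These are the extremes of a long list, the arrays share a normalization, and the E168d2neo/d2neo arrays carry much of the spread, so the likeness is a description.

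Further ganglion cell genes were read from wider lists. Their counts of calls are set beside the same 3.79%, 0.979% and 3.89% of all probes called in E168d2neo/d2neo, R90Wneo/Wneo and Crx-/-. Among 25 other ganglion cell genes tested, 1 was called, and in every mutant, a share near that background in E168d2neo/d2neo and Crx-/-. This was *Chrna3*, a nicotinic acetylcholine receptor subunit. It read 6.58, 7.15 and 7.57 for WT, 8.78, 8.75 and 8.88 for E168d2neo/d2neo, 8.71, 8.47 and 8.56 for R90Wneo/Wneo, and 8.63, 8.56 and 8.79 for Crx-/-. All 9 mutant arrays lay above the WT arrays, which were spread over a wider range than those of any mutant. A second *Chrna3* probe was undetected on all 12 arrays. The log2 difference was 1.71 ± 0.22 (SE, adjusted p = 0.000824), 1.48 ± 0.22 (adjusted p = 0.00844) and 1.56 ± 0.22 (adjusted p = 0.0017), or 3.26-fold, 2.79-fold and 2.95-fold. The call in R90Wneo/Wneo was lost when only the R90Wneo/Wneo and WT arrays entered the fit (adjusted p = 0.115) and without R90Wneo/Wneo replicate 1 (adjusted p = 0.0527), and SAM did not make it.

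Of the nicotinic receptor subunits on the list, *Chrna6* differed by 0.09, 0.09 and -0.03, and *Chrnb3* by -0.15, -0.37 and -0.59, none of them called. *Pvalb*, the calcium buffer parvalbumin, differed by -1.05 (adjusted p = 0.101), -0.16 (adjusted p = 0.918) and -1.25 (adjusted p = 0.0519) and was not called. It passed the test in Crx-/- under other detection filters, another scaling or background correction, and a fit of these 2 genotypes alone (adjusted p between 0.0219 and 0.044), and in E168d2neo/d2neo without replicate 1 (adjusted p = 0.0405). Of the 25 genes, at an unadjusted p under 0.05, 2 were lower and 4 higher in E168d2neo/d2neo, 1 was lower and 2 higher in R90Wneo/Wneo, and 4 were lower and 3 higher in Crx-/-. These shares lay near the 21.6%, 11.4% and 21.6% of all probes in either direction. The median over the 25 genes was -0.01, -0.05 and -0.18. Their brightest members were *Calb2*, the calcium buffer calretinin that amacrine cells also make (-0.14, 0.10 and -0.28), and *Stmn2*, a regulator of microtubules in growing axons (0.27, 0.18 and 0.13).

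Among 17 genes, nearly all transcription factors of ganglion cells or their precursors, *Isl1* and *Pou4f1* included, 2 were called higher in E168d2neo/d2neo, 0 for R90Wneo/Wneo and 1 for Crx-/-, and 0 were called lower. At an unadjusted p under 0.05, 7 were higher for E168d2neo/d2neo, 3 for R90Wneo/Wneo and 9 for Crx-/-, with 1 lower in each, beside 21.6%, 11.4% and 21.6% of all probes in either direction. Their medians were 0.33, 0.13 and 0.39. The gene that was lower in each was *Jam2*, a junctional adhesion molecule that marks a ganglion cell subtype, at -0.98 (adjusted p = 0.0423, under 2-fold), -0.84 (adjusted p = 0.18) and -0.87 (adjusted p = 0.0638). It reached the 2-fold limit in E168d2neo/d2neo without replicate 1, at -1.23. *Sox11*, a factor of immature neurons, read 8.93, 8.64 and 8.85 for WT, 10.17, 10.06 and 9.78 for E168d2neo/d2neo, 9.47, 9.33 and 9.21 for R90Wneo/Wneo, and 9.85, 10.17 and 9.74 for Crx-/-. Each mutant lay above WT on all arrays, with R90Wneo/Wneo the nearest. *Sox11* rose by 1.20 ± 0.17 (SE, adjusted p = 0.00183) for E168d2neo/d2neo and by 1.11 ± 0.17 (adjusted p = 0.00314) for Crx-/- on the log2 scale, and differed by 0.53 (adjusted p = 0.228) for R90Wneo/Wneo. Without Crx-/- replicate 2 the call in Crx-/- ended, at 0.98. Its second probe was called in the same mutants, at 1.17 and 1.63.

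*Klf7*, a zinc finger factor of axon growth, read 10.70, 10.83 and 10.85 for WT, 12.28, 11.87 and 11.95 for E168d2neo/d2neo, 11.85, 11.32 and 11.56 for R90Wneo/Wneo, and 11.75, 11.67 and 11.85 for Crx-/-. The WT arrays were the lowest 3. *Klf7* rose by 1.24 ± 0.17 (SE, adjusted p = 0.00138) for E168d2neo/d2neo, and its log2 difference was 0.78 (adjusted p = 0.0543) for R90Wneo/Wneo and 0.96 (adjusted p = 0.00678), just under 2-fold, in Crx-/-. Of its other 2 probes, 1 was called in E168d2neo/d2neo, at 1.24, and the other reached 0.90.

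Of 14 axon guidance and optic nerve genes, 1 was called, *Epha5*, a receptor for ephrins that guide retinal axons. It read 8.45, 8.32 and 8.48 for WT, 9.44, 9.67 and 9.35 for E168d2neo/d2neo, 9.12, 8.92 and 8.87 for R90Wneo/Wneo, and 9.39, 9.27 and 9.04 for Crx-/-. Every mutant array lay above WT. *Epha5* rose by 1.07 ± 0.15 (SE, adjusted p = 0.00179) for E168d2neo/d2neo, and differed by 0.56 (adjusted p = 0.136) for R90Wneo/Wneo and 0.82 (adjusted p = 0.00906, under 2-fold) for Crx-/-. The call ended without E168d2neo/d2neo replicate 2, at 0.98. A second probe that was detected on all arrays differed by 0.72, 0.16 and 0.70 and was not called. Of the 14 genes, 8 were higher at an unadjusted p under 0.05 for E168d2neo/d2neo, 2 for R90Wneo/Wneo and 6 for Crx-/-, and 0 were lower, beside the same 21.6%, 11.4% and 21.6% of all probes. The median over the 14 genes was 0.44, 0.27 and 0.48, beside 0.01 for all tested probes.

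**Figure D4:**
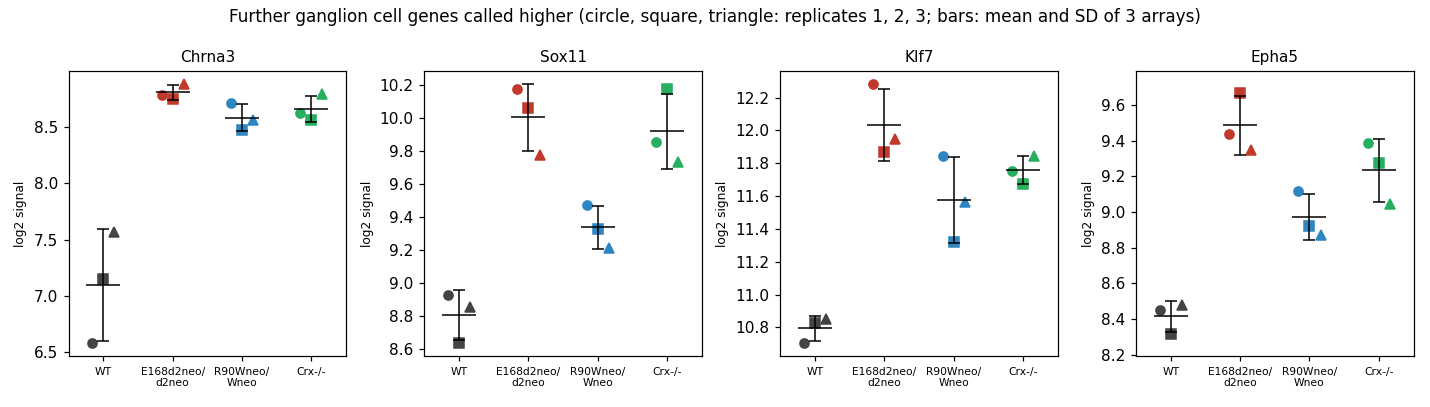
Log2 signal (y axis) of *Chrna3*, *Sox11*, *Klf7* and *Epha5* on each array by genotype (x axis), with the mean and SD of 3 arrays. All 9 mutant arrays lie above the 3 WT arrays for each gene, and *Chrna3* spreads from 6.58 to 7.57 within WT.

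Markers of neighbouring cell types were counted on the same arrays. Of 13 amacrine cell genes 0 were called in any mutant by limma. At an unadjusted p under 0.05, 3, 1 and 1 were higher, beside 21.6%, 11.4% and 21.6% of all probes in either direction. The medians of the 13 genes were 0.19, 0.19 and 0.08. Of these, *Slc32a1*, the vesicular transporter of inhibitory neurons, differed by 0.19, 0.23 and 0.08. Among 5 oligodendrocyte genes tested 1 was called, *Mbp*, a myelin protein, which rose by 1.54 (adjusted p = 0.000548) for E168d2neo/d2neo and by 1.40 (adjusted p = 0.00123) for Crx-/- on the log2 scale and differed by 0.79 (adjusted p = 0.0736) for R90Wneo/Wneo. A second *Mbp* probe, detected on 7 arrays, differed by 0.01, -0.42 and 0.29. The myelin enzyme *Cnp* differed by -0.16, -0.28 and 0.02. Single genes were called in Crx-/- only among 5 horizontal cell genes, with *Onecut2*, a transcription factor, higher by 1.06 (adjusted p = 0.0126), among 12 Mueller glia genes, with *Rdh10*, a retinol dehydrogenase, higher by 1.13 (adjusted p = 0.0136), and among 5 astrocyte genes, with *Aldh1l1*, a folate enzyme, lower, at -1.02 (adjusted p = 0.0128). The differences of *Rdh10* and *Aldh1l1* went to 0 with a higher floor, so both genes were dim. None of the 3 genes called in Crx-/- only was called between mutants. Their calls were lost when single arrays were left out: *Onecut2* without Crx-/- replicate 2 (adjusted p = 0.0503) and, at 0.85, without WT replicate 1, *Rdh10* without Crx-/- replicate 2 (adjusted p = 0.061), and *Aldh1l1* without Crx-/- replicate 1 (adjusted p = 0.0517) and, at -0.87, without WT replicate 1.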

How the data were processed

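The authors deposited, per probe and array, a background-subtracted intensity from Illumina GenomeStudio (MouseWG-6 v2.0 arrays, not normalized between arrays) and a detection p-value. The series' processed values, also deposited as intensity, were found to be the same signals multiplied by 1 factor per array (0.753 to 1.68). Their probe names stood beside values of other probes, so they were matched by row order and served only as an alternative.

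Signals of the 12 arrays were quantile-normalized, raised to 16 where lower, and converted to log2 (limma 3.58.1, R 4.3.3). Of 45281 probes, 24311 had a detection p-value below 0.05 on 1 array or more and entered 1 linear model with genotype as its factor (lmFit, eBayes). The platform annotation names 1 gene for 34885 probes, more than 1 for 18, and no gene for 10378. In counts the brightest probe stood for a gene. Members and lists were chosen with earlier results of these data known. Genes outside the members were named when called in a list, or, where none was, from the brightest of it, and *Rbpms2*, *Chrna6*, *Chrnb3*, *Stmn2*, *Jam2*, *Pvalb*, *Kif5a*, *Kif5c*, *Cd3e* and *Cnp* were added after their values were seen. Between 32.7% and 41.3% of probes were detected per array, and the precision is limited by there being 3 arrays per genotype. The 3 comparisons with WT share its arrays. The lowest two-sided p that exact permutation of 3 arrays against 3 allows is 0.1. Such p-values were computed for single probes but were not used for calls. The model and SAM were tested on simulated data. The alternatives, given in the closing section, were other floors, filters and normalizations, SAM, a fit of 2 genotypes, a replicate block and leaving out single arrays.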

Additional observations from a re-analysis of the deposited data

Results flagged for a closer look

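*Slc17a7*, the vesicular glutamate transporter gene of photoreceptors, was called in a direct comparison of mutants, with a log2 difference of -1.51 between E168d2neo/d2neo and R90Wneo/Wneo (adjusted p = 0.0423 from limma). No member was called between mutants, nor was any other gene whose difference from WT is given above, photoreceptor lists aside. The difference kept its direction in all 16 alternatives run and lost the call in 10 of them, with an adjusted p of 0.337 when only these arrays entered the fit and between 0.0646 and 0.19 when E168d2neo/d2neo replicate 2 or 3 or any R90Wneo/Wneo array was left out.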

How the results depend on the processing

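The count of ganglion cell genes called was 0 in all 123 alternatives run (SAM was not run for the mutants together). The median difference of the members stayed within the spread between arrays in 117 of 124. In Crx-/- against WT it moved from -0.07 to -0.171 over the genes detected on at least 3 arrays and to -0.182 over all tested member probes, the latter chosen after seeing the data. Leaving out single arrays moved it past that spread only in comparisons with E168d2neo/d2neo. There it ran from -0.0448 (without E168d2neo/d2neo replicate 3) to 0.280 (without replicate 1) against WT, from -0.0234 to 0.264 (without the same arrays) against Crx-/-, and from 0.0778 (without R90Wneo/Wneo replicate 3) to 0.217 (without E168d2neo/d2neo replicate 1) against R90Wneo/Wneo. The replicate block, a paired fit by array number, called 0 members and left the median at 0.09, -0.02 and -0.07 in E168d2neo/d2neo, R90Wneo/Wneo and Crx-/- against WT. The sample labels state no pairing. Correlations of same-numbered arrays ran from -0.05 to 0.31, and 7 of 12 arrays correlated best with an array of their own number. The count expected without pairing was not computed, so these values do not settle whether the arrays were paired.

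Of 1844 values of single member probes, 86 changed sign with no call on either side, 34 were at 0 in either fit, and 1, *Rbpms* probe 4 in Crx-/-, became a call without WT replicate 1. *Epha5* in E168d2neo/d2neo and *Sox11* in Crx-/- went to 0.98, under 2-fold, without replicate 2 of those genotypes, and *Klf7* in Crx-/- passed 2-fold, at 1.03, with arrays scaled to a common mean. That scaling raised the median of all tested probes from 0.01 in each mutant to 0.100 for E168d2neo/d2neo, 0.0558 for R90Wneo/Wneo and 0.0571 for Crx-/-. *Aldh1l1* and *Rdh10* in Crx-/- went to 0 with a higher floor and *Onecut2* to 0.997 with another background correction. Calls over all probes ran from 150 to 796 higher (376 in the main setting) and 354 to 646 lower (545) for E168d2neo/d2neo, from 9 to 107 (80) and 36 to 167 (158) for R90Wneo/Wneo, and from 184 to 476 (376) and 359 to 634 (570) for Crx-/-. The cause of these changes was not tested. Dim probes, *Nefl* among them, lie at the floor on many arrays, which limits what can be said of neurofilaments.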
